A study of Mus musculus with 7 samples.

Results

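The genes described here are the cytochrome P450 genes of families 1 to 4 that were chosen by name from the subfamilies 1A, 2C, 2D, 2J, 2R, 2U, 3A, 4A, 4B, 4F and 4V. Of 48 listed genes, 45 were in the table of 14851 genes, 1 of them, *Cyp2c44*, under its synonym *Cyp2c23*. *Cyp2d13*, *Cyp2d34* and *Cyp3a44* were not analysed here. RNA came from the livers of 4 mice of the genotype *Albumin-Cre; p53 FL/FL* (FL), whose floxed *Trp53* is removed by a Cre made from the hepatocyte promoter of *Albumin*, and of 3 mice of the genotype *Albumin-Cre; p53 WT/WT* (WT), with the Cre but an intact *Trp53*. All mice were C57BL/6J males about 70 days old, and all were killed 8 h after a single intraperitoneal injection of CCl4 (1 mL/kg of a 20% v/v solution in corn oil), so that no untreated liver enters the comparison. Some mice of either genotype carried a *Rosa26 LSL-tdRFP* reporter, and the labels do not say which. Liver cells in which the Cre was never made keep their *Trp53*, and which cells these are was not measured here.

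P450 enzymes are haem proteins that insert an oxygen atom into their substrates with electrons from P450 reductase. Those of families 1 to 3 oxidise drugs, toxins, steroids and fatty acids, and those of family 4 mainly oxidise fatty acids and eicosanoids at or near the end of the chain. Most lie in the endoplasmic reticulum of hepatocytes, many of them most abundant around the central vein, and the amounts of several differ between male and female mice. CCl4 is turned into radicals by P450 enzymes, chiefly CYP2E1, and the cells around the central vein are damaged first.

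Values are counts normalised by size factors, and log2 fold changes are FL minus WT on the scale of log2(normalised count + 1), which understates the differences of low genes. Of the 45 genes, 44 reached a mean of 10 over the livers and were tested among 12545 genes by limma with Benjamini-Hochberg adjustment. *Trp53* was lower in every FL liver (131, 130, 217 and 110 against 876, 688 and 831 normalised counts, here and throughout in the order of the replicate numbers). Its log2 fold change of -2.47 had a standard error of 0.23 and an adjusted p of 0.0447 by limma. WT replicate 2 and FL replicate 3 stood apart from the other livers. On the first principal component, which held 66.7% of the variance, they lay at 82.0 and 29.2 and the other 5 livers between -25.6 and -19.1. All 7 tested proliferation markers and all 3 tested lymphocyte markers were highest within their genotype in these livers, as were 8 and 6 of 8 macrophage markers and 7 and 6 of 8 hepatocyte markers, in the same order. Summed hepatocyte markers ranged from 1301952 to 1757359 in FL and from 1122054 to 1414668 in WT livers, summed macrophage markers from 4872 to 7806 and from 4864 to 12545, and the neutrophil marker *Cxcr2* and the B cell marker *Ms4a1* were at 0 in 1 liver each. Between the genotypes, 7 of 8 hepatocyte markers had a log2 fold change above 0, and 7 of 8 macrophage, 5 of 5 stellate and 7 of 7 proliferation markers below 0. Of these, 1 hepatocyte marker had an unadjusted p under 0.05 (3.2% of all tested genes). Of the 5 bile duct markers, 3 had one (1 higher and 2 lower in FL livers), and for 3 the genotypes did not overlap (4.76%). Without WT replicate 2 and FL replicate 3, the hepatocyte markers above 0 numbered 6 of 8, the macrophage markers below 0 2 of 8, the stellate markers 3 of 5 and the proliferation markers 5 of 6 tested. In that fit 4 of the 5 bile duct markers had an unadjusted p under 0.05 (9.74% of all genes), 1 higher and 3 lower in FL livers. For 4 of them the genotypes did not overlap (27.4%), and 1 passed the threshold (0.0487%) with an adjusted p of 0.027 by limma. All 5 stellate markers were highest among WT livers in WT replicate 2, and all 5 bile duct markers were lowest among FL livers in FL replicate 3. Their part in the results was not tested, and results that rest on these livers are given with and without them. Fewer cells of a type and less RNA per cell cannot be told apart in whole liver.

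Start sites were taken from RefSeq on GRCm38.p6, which gave promoters for 35 of the 45 genes. The sequences shown first are the stretches around a motif specific to the nuclear receptor HNF4, a main activator of hepatocyte genes, because this motif was found in 8 of the 35 windows of 250 bases before the start and in 0.384% of the 32851 such windows in the table. The motif searched was CAAAGTCCA on both strands, and it is in capitals with 10 bases on either side, on the strand of the gene.
Cyp2c40, chr19:39812841-39812869: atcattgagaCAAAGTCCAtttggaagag
Cyp2c67, chr19:39649149-39649177: atcattgagaCAAAGTCCAtttggaagca
Cyp2c68, chr19:39741160-39741188: atcattgaaaCAAAGTCCAattggaagag
Cyp2c69, chr19:39886826-39886854: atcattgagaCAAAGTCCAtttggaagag
Cyp2c70, chr19:40187332-40187360: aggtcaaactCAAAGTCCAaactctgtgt
Cyp3a11, chr5:145879945-145879973: aagagagtacCAAAGTCCAgtgatgcaaa
Cyp3a16, chr5:145469804-145469832: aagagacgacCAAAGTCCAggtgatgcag
Cyp3a41a, chr5:145720213-145720241: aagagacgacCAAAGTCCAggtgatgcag

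All 8 genes lie on the minus strand, and the stretch printed is identical in *Cyp2c40* and *Cyp2c69* and in *Cyp3a16* and *Cyp3a41a*. The letters TATAAA, searched on both strands, were in 17 of the 35 windows against 12.4% of all windows, and the core GCGTG bound by the aryl hydrocarbon receptor was in 6 against 28.2%. The p53 decamer motif was in 5 windows, those of *Cyp2c29*, *Cyp2c38*, *Cyp2c39*, *Cyp2c55* and *Cyp4f15*, against 7.13% of all windows. The 4 windows that follow are given whole because they carry the values described below: *Cyp3a13*, which was higher in every FL liver, *Cyp2c37* and *Cyp2c50*, which were low in the 2 livers that stood apart, and *Cyp2c55*, which was highest there. In the last, capitals mark the p53 decamer motif, which begins at -190 from the start, and TATAAA, which begins at -29. The other windows held none of the HNF4, TATAAA or p53 motifs.
Cyp3a13, chr5:137921620-137921869, minus strand: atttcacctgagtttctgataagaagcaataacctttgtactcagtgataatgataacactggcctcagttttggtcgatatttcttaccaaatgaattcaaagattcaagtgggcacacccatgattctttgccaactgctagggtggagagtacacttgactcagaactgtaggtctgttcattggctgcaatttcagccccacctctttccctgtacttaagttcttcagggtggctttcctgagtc
Cyp2c37, chr19:39992174-39992423, plus strand: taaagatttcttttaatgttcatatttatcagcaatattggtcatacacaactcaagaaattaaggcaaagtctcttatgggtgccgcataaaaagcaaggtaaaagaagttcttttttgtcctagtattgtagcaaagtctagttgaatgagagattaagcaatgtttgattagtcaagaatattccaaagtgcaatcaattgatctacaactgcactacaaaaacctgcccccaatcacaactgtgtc
Cyp2c50, chr19:40089429-40089678, plus strand: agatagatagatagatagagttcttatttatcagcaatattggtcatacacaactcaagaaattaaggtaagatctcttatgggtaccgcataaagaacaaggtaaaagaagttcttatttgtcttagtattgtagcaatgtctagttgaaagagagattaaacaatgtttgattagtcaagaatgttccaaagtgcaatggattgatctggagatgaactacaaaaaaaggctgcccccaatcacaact
Cyp2c55, chr19:39006769-39007018, plus strand: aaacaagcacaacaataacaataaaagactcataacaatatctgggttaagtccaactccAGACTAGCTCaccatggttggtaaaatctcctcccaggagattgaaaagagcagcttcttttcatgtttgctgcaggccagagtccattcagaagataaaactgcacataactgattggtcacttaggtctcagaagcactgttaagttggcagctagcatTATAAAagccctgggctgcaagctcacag

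The windows of *Cyp2c37* and *Cyp2c50* had identical bases at 88.4% of 242 aligned positions. A match to a motif is a description of the sequence.

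None of the 44 tested P450 genes passed the threshold (adjusted p under 0.05 by limma), against 0.0159% of all tested genes, and the lowest adjusted p was 0.999. An unadjusted p under 0.05 was found for 7 genes (3.2% of all genes), 3 higher (1.59%) and 4 lower (1.6%) in FL livers. The genotypes did not overlap for 6 genes (4.76% of all genes). Of these, *Cyp2d22*, *Cyp2d26*, *Cyp3a13* and *Cyp4f13* were higher in every FL liver (2.77% of all genes) and *Cyp2j6* and *Cyp3a11* lower (1.98%). After quantile normalisation the split of 4 higher and 2 lower became 2 and 3. The log2 fold changes had a median of 0.03 beside 0.01 over all genes, and 23 were above and 21 below 0. They ran from -1.54 for *Cyp2c55* to 1.72 for *Cyp2c69*, and both extremes rested on WT replicate 2. With WT replicate 2 and FL replicate 3 left out, still 0 of 44 passed (0.0487% of all genes), with a lowest adjusted p of 0.167 by limma. The unadjusted count was then 21 (9.74% of all genes), 8 higher (4.57%) and 13 lower (5.17%) in FL livers. Genotypes did not overlap for 23 genes (27.4%), 10 higher (12.8%) and 13 lower (14.6%).

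**Figure D1:**
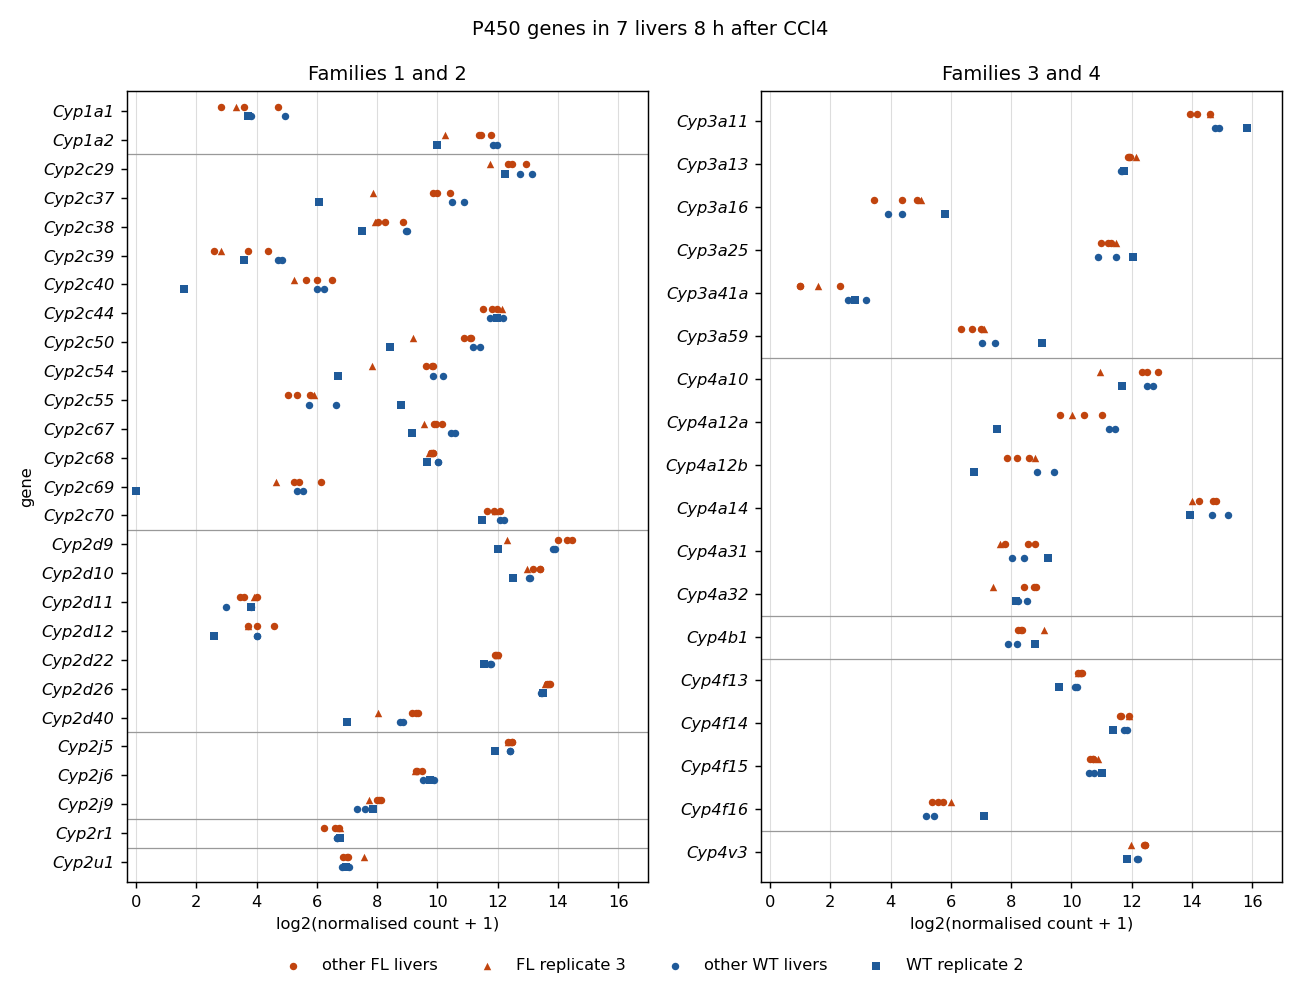
Each row is a P450 gene and each symbol 1 liver, with log2(normalised count + 1) on the x axis and lines between subfamilies. The square of WT replicate 2 lies furthest to the left in most rows of subfamily 2C, reaching 0 for Cyp2c69, and to the right for Cyp3a11, Cyp3a59 and Cyp2c55.

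Compared per kilobase of exon, the most abundant of these transcripts was *Cyp4a14*, with a mean of 9268 normalised counts per kilobase over the 7 livers, followed by *Cyp2d26* (6842), *Cyp3a11* (5613), *Cyp2d10* (5371) and *Cyp2d9* (5273). *Cyp4a14* was the highest in 4 of the 7 livers, *Cyp2d26* in FL replicates 1 and 3, and *Cyp3a11* in WT replicate 2, where it reached 11349.9 per kilobase against 5990.4 for *Cyp4a14*. The lowest mean was that of *Cyp3a41a* at 1.87. As a share of the length-corrected total of the liver, the 45 genes held 0.965%, 1.02%, 0.742% and 0.922% in FL and 1.04%, 0.906% and 1.18% in WT livers. The genotypes overlapped in this share, and the lowest FL and the lowest WT liver were those that stood apart.

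**Figure D2:**
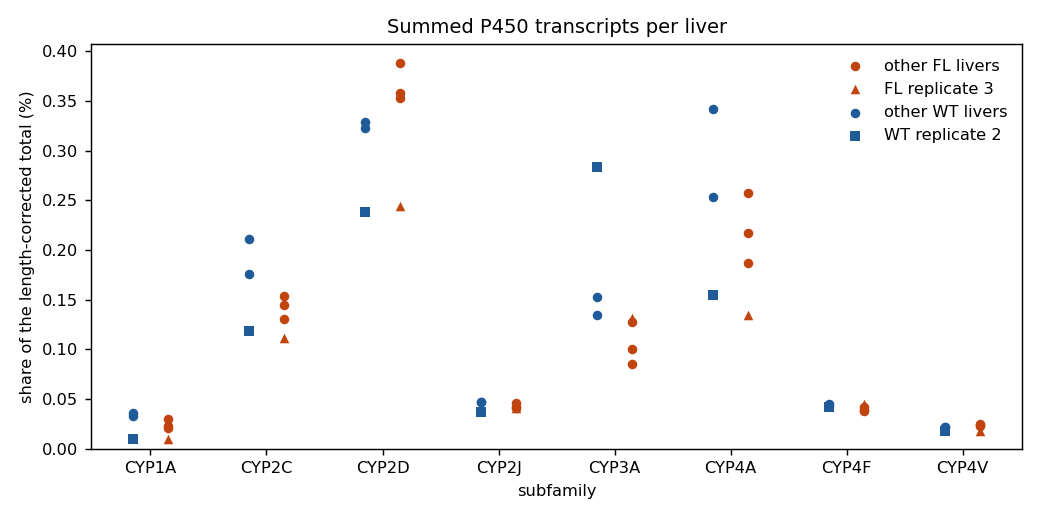
Each symbol is the sum of a subfamily in 1 liver, as a percentage of that liver's total after division of each gene by its exon length. The 4 FL livers sit between 0.0849% and 0.132% for CYP3A, below the WT livers at 0.134% to 0.283%, and the genotypes overlap in every other subfamily plotted. Most of the CYP3A sum is Cyp3a11, with a mean of 5613 per kilobase against 1288 for Cyp3a25 and 1254 for Cyp3a13. Cyp3a13 is higher in every FL liver.

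The 3A enzymes oxidise many drugs and steroids, and *Cyp3a11* (chromosome 5 of GRCm38, 145854426 to 145879964) is the main mouse gene of this subfamily and a target of the pregnane X receptor. It had 25024, 18293, 25002 and 15797 in FL and 27678, 57805 and 30505 in WT livers. Every FL liver was lower than every WT liver, and WT replicate 2 was at 199% of the mean of the other WT livers. The mean was 21029 ± 4712 (SD, n = 4) in FL and 38663 ± 16638 (SD, n = 3) in WT livers. The log2 fold change was -0.83 (standard error 0.29, unadjusted limma p = 0.0225, rank 179 of 12545, exact two-sided permutation p = 0.0286), and it was -0.59 (standard error 0.17) without WT replicate 2 and FL replicate 3. The permutation p is the smallest that 4 against 3 livers allow, since they can be split in 35 ways.

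*Cyp3a13*, another enzyme of this subfamily (chromosome 5, 137892932 to 137921619), lies apart from the other 3A genes and went the other way, with 3973, 3818, 4524 and 3746 in FL and 3167, 3439 and 3284 in WT livers. Every FL liver was higher than every WT liver, and the SD was 352 in FL and 136 in WT livers. Its log2 fold change was 0.28 (standard error 0.10, unadjusted limma p = 0.0281) and its exact permutation p was 0.0286, but with quantile normalisation the genotypes overlapped. None of its 36-base stretches occurs in another gene, against 13.1% for *Cyp3a11*. *Cyp3a59* had 128, 104, 137 and 79 in FL and 129, 515 and 177 in WT livers, which overlap at FL replicate 3. Its log2 fold change was -1.05 (standard error 0.45, unadjusted limma p = 0.0477, exact two-sided permutation p = 0.0571) with WT replicate 2 at 337% of the other WT livers, and -0.57 without the livers that stood apart. It shares 38.5% of its stretches with *Cyp3a25*, which ranged from 2026 to 2868 in FL and from 1873 to 4258 in WT livers.

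*Cyp3a16* and *Cyp3a41a* are more abundant in female than in male adult liver and were low in these males. *Cyp3a16* had 20, 28, 31 and 10 in FL and 14, 55 and 20 in WT livers, and its log2 fold change was -0.27 (standard error 0.55) with all livers and 0.09 without those that stood apart. *Cyp3a41a* had 1, 4, 2 and 1 in FL and 8, 6 and 5 in WT livers, too low to be tested, with 3 FL livers below the floor of 3 normalised counts. Although the genotypes do not overlap, 95.3% of its stretches also occur in *Cyp3a41b*, which had 41 in FL replicate 3, 60 in WT replicate 2 and at most 1 elsewhere. How the reads of this pair were divided is not known.

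**Figure D3:**
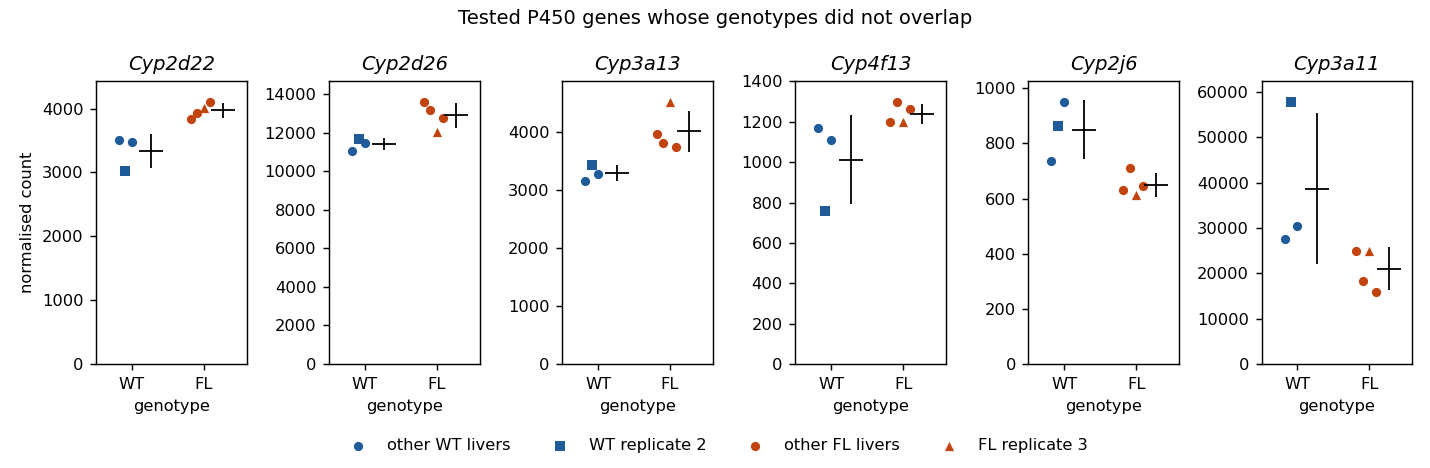
Each panel is 1 of the 6 tested P450 genes whose genotypes did not overlap, with the normalised count on a y axis that starts at 0, symbols for single livers, and a horizontal mark and bar for the mean and SD. The FL means lie at 113% to 122% of the WT means for the 4 genes on the left and at 76.5% and 54.4% for Cyp2j6 and Cyp3a11.

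Subfamily 2J holds enzymes that turn arachidonic acid into epoxides. *Cyp2j6* (chromosome 4, 96516138 to 96553661) had the smallest p of the 44 genes. It had 630, 712, 612 and 646 in FL livers and 736, 863 and 950 in WT livers, so that the lowest WT liver was just above the highest FL liver. FL replicate 3 was the lowest of the 7 livers, and WT replicate 2 lay between the other WT livers. The mean was 650 ± 43.6 (SD, n = 4) in FL and 850 ± 108 (SD, n = 3) in WT livers. The log2 fold change was -0.38 (standard error 0.12, unadjusted limma p = 0.0133, rank 113) with an exact two-sided permutation p of 0.0286. Over all 20 settings tried, leaving out both of those livers among them, the fold change stayed between -0.48 and -0.30. Its unadjusted limma p was under 0.05 in 18 of them, but not with the replicate block or without WT replicate 3. Only quantile and trimmed-mean scaling could have made the genotypes overlap, and with neither did they. *Cyp2j9*, in the same cluster of chromosome 4, had 257, 281, 213 and 266 in FL and 159, 232 and 191 in WT livers, overlapping by WT replicate 2. Its log2 fold change was 0.40 (standard error 0.17, unadjusted limma p = 0.0437, exact two-sided permutation p = 0.0857), and 0.62 (adjusted p = 0.167 by limma) without the livers that stood apart. *Cyp2j5*, the most abundant of the subfamily, ranged from 5203 to 5742 in FL and from 3881 to 5503 in WT livers.

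The 2D genes, which lie on chromosome 15 between 82370527 and 82794294 and whose human relative CYP2D6 oxidises many drugs, had log2 fold changes above 0 in all 7 tested genes, with a median of 0.36. Both 1A genes were below 0, and each other subfamily of more than 1 gene held both signs. The direction of the 2D genes stayed after quantile normalisation, rescaling by trimmed means and removal of both livers that stood apart; without WT replicate 2 alone, *Cyp2d9* and *Cyp2d12* were below 0, and without WT replicate 3, *Cyp2d11* was. *Cyp2d22* (82370527 to 82380260) had 3842, 3930, 4005 and 4103 in FL and 3509, 3021 and 3469 in WT livers. Its FL livers were all higher and closely spaced, and the log2 fold change was 0.26 (standard error 0.10, unadjusted limma p = 0.0319, exact two-sided permutation p = 0.0286). *Cyp2d26* (82790101 to 82794294) had 13600, 13206, 12037 and 12754 in FL and 11069, 11689 and 11472 in WT livers, again with no overlap. Its log2 fold change was 0.18 (standard error 0.10, unadjusted limma p = 0.126, exact two-sided permutation p = 0.0571), and with quantile normalisation it was 0.03 and the genotypes overlapped.

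*Cyp2d10* had 9226, 10932, 7954 and 10890 in FL and 8665, 5825 and 8464 in WT livers, and its log2 fold change was 0.36 (standard error 0.19). Only FL replicate 3 lay within the WT values. *Cyp2d40* had 654, 571, 261 and 631 in FL and 461, 128 and 432 in WT livers, where the lowest value of either genotype was in a liver that stood apart. Its log2 fold change was 0.76 (standard error 0.50), and 0.47 (standard error 0.10, adjusted p = 0.187 by limma) without those livers. *Cyp2d9*, a steroid hydroxylase of male liver, had 16245, 22811, 5076 and 20134 in FL and 15148, 4147 and 14553 in WT livers. Here too FL replicate 3 and WT replicate 2 were far below the rest, at 25.7% and 27.9% of the other livers of their genotype, and the log2 fold change was 0.52 (standard error 0.63), and 0.40 (standard error 0.14) without them. *Cyp2d11* and *Cyp2d12* stayed at 23 or less in every liver. Up to 52.5% of the stretches of a 2D gene (*Cyp2d11*) occur in other genes, and 6.12% of those of *Cyp2d22*, so the levels of the former are uncertain.

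**Figure D4:**
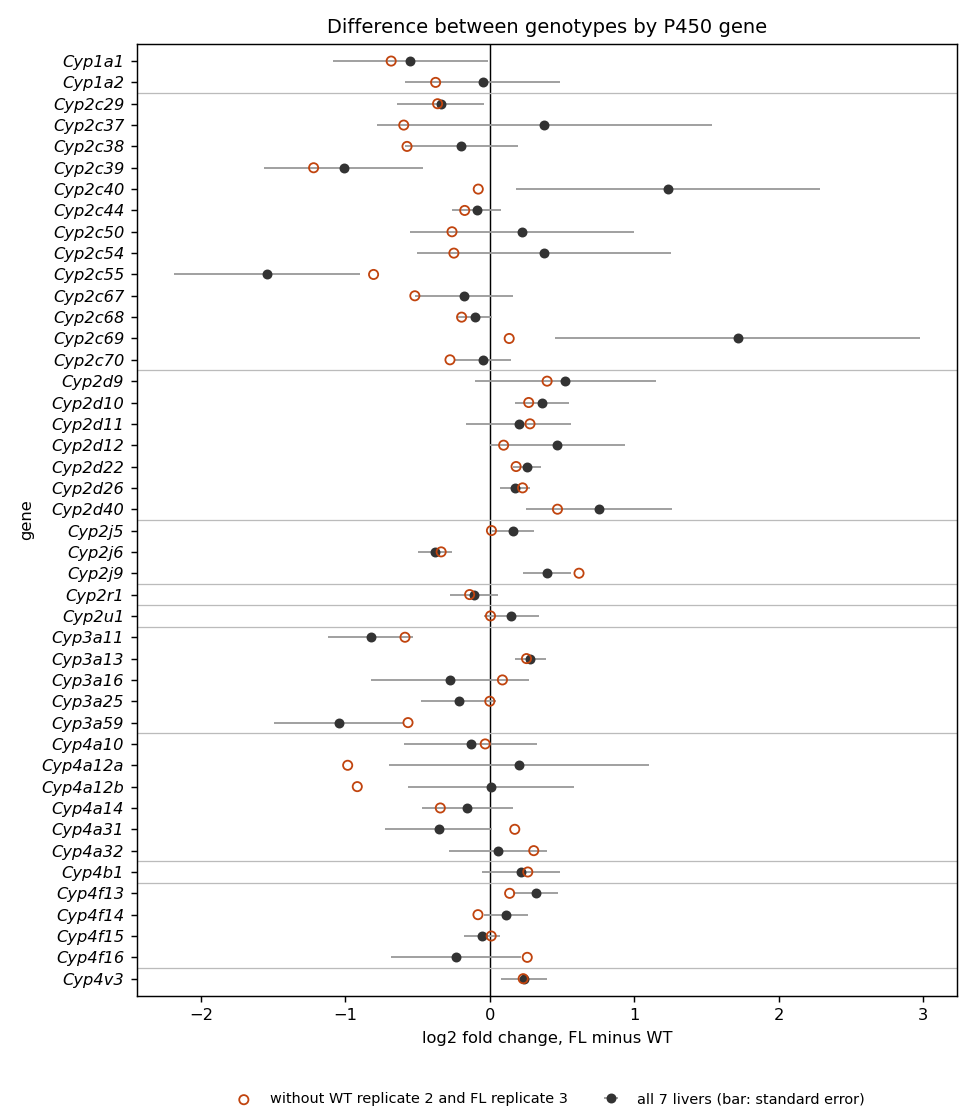
Filled points are log2 fold changes (FL minus WT) of the 44 tested P450 genes with all 7 livers, bars are standard errors, and open circles leave out WT replicate 2 and FL replicate 3. The 2D genes lie to the right of 0 in both fits, while 12 of the 13 open circles of subfamily 2C lie to the left of 0 where 8 of the filled points do.

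Subfamily 2C is a large mouse group related to the human CYP2C drug and fatty acid epoxygenases. It showed no common direction in all 7 livers: 5 of 13 genes were above 0 and 8 below, with a median of -0.09. An unadjusted p under 0.05 was found for 1 gene (3.2% of all genes). Without WT replicate 2 and FL replicate 3, 12 of 13 were lower, 7 of them with an unadjusted p under 0.05 (5.17% of all genes), and the smallest adjusted p, for *Cyp2c67*, was 0.167 by limma. The direction turned with single livers: 13 of 13 were lower without WT replicate 2 alone, but 8 of 13 were higher without WT replicate 1 and 9 of 13 without WT replicate 3. *Cyp2c67* had 952, 1149, 748 and 983 in FL and 1398, 570 and 1543 in WT livers, so that WT replicate 2 alone lay below the FL values. *Cyp2c29* ranged from 3399 to 7794 in FL and from 4846 to 9028 in WT livers, and *Cyp2c70* from 3190 to 4361 and from 2871 to 4724. *Cyp2c68* ranged from 842 to 922 in FL and from 813 to 1039 in WT livers. *Cyp2c44*, which lies apart from the cluster, ranged from 2950 to 4486 and from 3419 to 4607.

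*Cyp2c55* had the most negative fold change. It had 54, 32, 59 and 40 in FL livers and 53, 443 and 99 in WT livers, so that WT replicate 2 was at 583% of the mean of the others and WT replicate 1 lay within the FL values. The log2 fold change was -1.54 (standard error 0.64, unadjusted limma p = 0.0438, exact two-sided permutation p = 0.0857) and -0.80 (standard error 0.31) without the livers that stood apart. *Cyp2c39* had 20, 12, 6 and 5 in FL and 28, 11 and 25 in WT livers, and its log2 fold change was -1.01 (standard error 0.55), and -1.22 without the livers that stood apart. *Cyp2c38* had 467, 305, 245 and 263 in FL and 492, 180 and 505 in WT livers, which gave -0.20 (standard error 0.39), and -0.57 (standard error 0.21) without those livers. The lowest WT liver was WT replicate 2 for both, and the genotypes overlapped. *Cyp2c69* had 37, 69, 24 and 41 in FL and 40, 0 and 46 in WT livers, and *Cyp2c40* had 49, 89, 37 and 63 and 64, 2 and 74. For both, WT replicate 2 was at or under the floor of 3 normalised counts while the other 2 WT livers lay within the FL values. Their log2 fold changes of 1.72 (standard error 1.26) and 1.23 (standard error 1.05) became 0.13 and -0.08 without the livers that stood apart. *Cyp2c38*, *Cyp2c39*, *Cyp2c40* and *Cyp2c69* are known to be more abundant in female liver, and *Cyp2c40* and *Cyp2c69* share 69.0% and 62.0% of their stretches with other genes.

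The livers within a genotype differed more in these genes than in most. With all 7 livers, the SD of log2 values within genotypes had a median of 0.51 over the 44 genes beside 0.26 over all tested genes. Over the 44 it was 0.20 once the livers that stood apart were left out. The median over all tested genes was not computed without them, so the 0.20 cannot be set beside the 0.26. WT replicate 2 was the lowest WT liver for 27 of 44 genes (44.3% of all tested genes) and over 2-fold below both other WT livers for 14 (6.31%), and over 2-fold above both for 4 (9.25%). FL replicate 3 was the lowest FL liver for 21 (34.5%) and over 2-fold below the other FL livers for 8 (1.24%), and over 2-fold above them for 0 (1.94%). The genes that were lowest in both numbered 17 (28.8%), 9 of them in subfamily 2C, and those highest in both numbered 9 (28.6%), 4 of them in subfamily 3A.

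Several of the lowest values relative to the other livers of the genotype were in neighbouring genes of the *Cyp2c* cluster of chromosome 19, in which the starts of 12 of the genes span 1146 kb, although *Cyp4a12a* on chromosome 4 and *Cyp2d9* on chromosome 15 were among the lowest too. *Cyp2c37* had 1018, 1384, 230 and 929 in FL and 1443, 67 and 1896 in WT livers. WT replicate 2 was thus at 4.01% and FL replicate 3 at 20.7% of the other livers of their genotype. The next genes along, *Cyp2c54* (913, 928, 225 and 784 in FL and 933, 102 and 1153 in WT livers) and *Cyp2c50* (2189, 2212, 577 and 1881 and 2303, 347 and 2724), were at 9.78% and 13.8% in WT replicate 2 and at 25.7% and 27.6% in FL replicate 3. *Cyp2c40* and *Cyp2c69*, on the other side of *Cyp2c37*, were at 2.90% and 0% in WT replicate 2 but at 55.2% and 49.0% in FL replicate 3. *Cyp2c68*, which precedes *Cyp2c40* in the cluster, was at 78.4% and 92.9%, and *Cyp2c70*, which follows *Cyp2c50*, at 63.3% and 102%. *Cyp2c55* at one end was above the other livers in both. *Cyp2c37*, *Cyp2c54* and *Cyp2c50* share up to 42.1% of their stretches with other genes, mostly with each other.

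**Figure D5:**
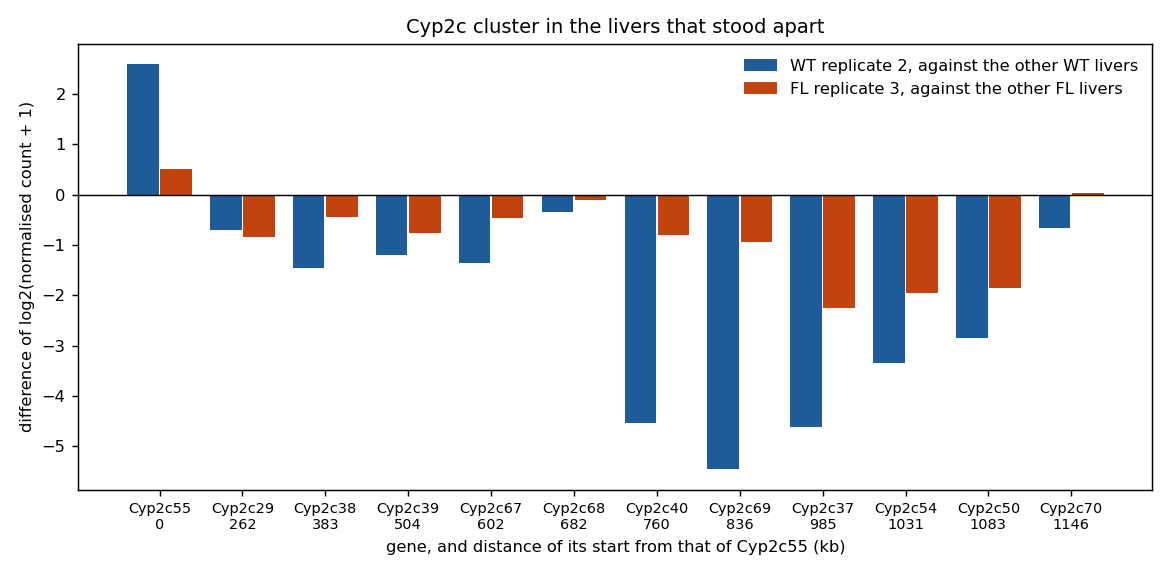
Bars give the log2(normalised count + 1) of WT replicate 2 and FL replicate 3 minus the mean of the other livers of the same genotype for 12 Cyp2c genes in chromosome order, with the distance from the start of Cyp2c55 in kb under each name. The bars of WT replicate 2 are at -2.85 or lower from Cyp2c40 to Cyp2c50, those of FL replicate 3 at -1.85 or lower for Cyp2c37, Cyp2c54 and Cyp2c50 alone, and both are above 0 for Cyp2c55.

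Of the 6 genes known to be enriched around the central vein (*Cyp1a2*, *Cyp2c29*, *Cyp2c37*, *Cyp2c50*, *Cyp2c54* and *Cyp3a11*), 5 were lowest in both livers that stood apart, and *Cyp3a11* was highest in WT replicate 2. *Cyp2e1*, the enzyme that activates CCl4 and itself a gene of the central vein, had 46171, 48870, 17110 and 37306 in FL and 51359, 8415 and 56150 in WT livers. Its lowest values were in the same 2 livers. The log2 fold change of *Cyp2e1* was 0.26 (standard error 0.69) with all livers and -0.29 (standard error 0.14) without those 2. Between the genotypes, 3 of the 6 were above and 3 below 0 with all livers, and 6 of 6 were lower in FL livers without those 2, 4 of them with an unadjusted p under 0.05 (5.17% of all genes, lowest adjusted p = 0.323 by limma).

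The 1A enzymes are targets of the aryl hydrocarbon receptor. *Cyp1a2* had 3489, 2809, 1228 and 2685 in FL and 3679, 1006 and 4048 in WT livers, and its log2 fold change was -0.05 (standard error 0.54) with all livers and -0.38 (standard error 0.12) without those that stood apart. *Cyp1a1*, which is inducible and low in untreated liver, had 11, 6, 9 and 25 in FL and 13, 12 and 30 in WT livers, which overlap, and its log2 fold change was -0.55 (standard error 0.54).

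The 4A genes encode fatty acid hydroxylases, and *Cyp4a10*, *Cyp4a14*, *Cyp4a31* and *Cyp4a32* are known as targets of PPARalpha. *Cyp4a14* had 19408, 28130, 16435 and 26409 in FL and 25724, 15581 and 37055 in WT livers. The lowest liver of each genotype was again FL replicate 3 and WT replicate 2, and the log2 fold change was -0.16 (standard error 0.31), and -0.34 without them. *Cyp4a10* ranged from 1960 to 7545 in FL and from 3273 to 6743 in WT livers, and *Cyp4a32* from 166 to 456 and from 282 to 363. *Cyp4a31* had 222, 446, 196 and 378 in FL and 259, 596 and 340 in WT livers, with WT replicate 2 the highest, and a log2 fold change of -0.35 (standard error 0.37). The male-biased *Cyp4a12a* had 1369, 2062, 1025 and 789 in FL and 2417, 182 and 2764 in WT livers. WT replicate 2 was at 7.03% of the other WT livers, which both lay above the highest FL liver. *Cyp4a12b* had 293, 381, 437 and 231 in FL and 461, 108 and 678 in WT livers, the same arrangement. The log2 fold changes were 0.20 (standard error 0.90) and 0.01 (standard error 0.58) with all livers, and -0.98 (standard error 0.31) and -0.92 (standard error 0.22) without WT replicate 2 and FL replicate 3. The 2 genes share 58.4% and 59.1% of their stretches with each other, so their reads could have been divided between them. Of the 3 male-biased genes (*Cyp2d9* and this pair), all were above 0 with 0 unadjusted p under 0.05 (3.2% of all genes) in all 7 livers. Without the 2 livers, *Cyp2d9* was higher and the pair lower in FL livers, with 3 unadjusted p under 0.05 (9.74% of all genes) and a lowest adjusted p of 0.245 by limma. Of the 5 tested female-biased genes, 2 were above and 3 below 0 in both fits, but not the same genes. Without the 2 livers, *Cyp2c40* turned from above to below 0 and *Cyp3a16* from below to above. The unadjusted p under 0.05 numbered 0 with all livers (3.2% of all genes) and 2 without those that stood apart (9.74%). The latter were *Cyp2c38* and *Cyp2c39*, both lower in FL livers (5.17%).

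The 4F enzymes inactivate leukotrienes and hydroxylate long fatty acids. *Cyp4f13* (chromosome 17, 32924688 to 32947402) had 1197, 1298, 1201 and 1263 in FL and 1170, 759 and 1108 in WT livers. Every FL liver was higher, by a narrow gap to WT replicate 1, and the log2 fold change was 0.32 (standard error 0.16, unadjusted limma p = 0.079, exact two-sided permutation p = 0.0286). WT replicate 2 was at 66.6% of the other WT livers, and the value was 0.14 without the livers that stood apart and from 0.12 to 0.43 with 1 liver left out. *Cyp4f14* had 3194, 3099, 3862 and 3871 in FL and 3458, 2635 and 3685 in WT livers, and its log2 fold change was 0.11 (standard error 0.15). *Cyp4f15* ranged from 1560 to 1869 in FL and from 1541 to 2042 in WT livers, and *Cyp4f16* from 40 to 63 and from 35 to 137. Of the single-gene subfamilies, the vitamin D hydroxylase *Cyp2r1* ranged from 75 to 108 in FL and from 100 to 107 in WT livers, *Cyp2u1* from 115 to 189 and from 114 to 133, *Cyp4b1* from 299 to 541 and from 237 to 437, and the fatty acid hydroxylase *Cyp4v3* from 3998 to 5578 and from 3660 to 4763.

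The 9 partners of microsomal P450 enzymes include the reductase *Por*, cytochrome b5 and the haem synthesis enzyme *Alas1*. Of these 9 genes, 0 had an unadjusted p under 0.05 (3.2% of all genes) and 6 were above 0. *Por* ranged from 17510 to 26961 in FL and from 14878 to 23833 in WT livers. Of 18 tested transcription factors known to act on P450 genes, 4 had an unadjusted p under 0.05 (3.2% of all genes), with an adjusted p of 0.999 by limma for each. The bile acid receptor *Nr1h4* was higher in every FL liver, as 2.77% of all genes were (1932 to 2101 against 1636 to 1664), with a log2 fold change of 0.28. *Cebpa*, an activator of hepatocyte genes, was too (6160 to 7169 against 4668 to 5954), with 0.31, and *Cebpb* overlapped, with 0.84. *Nfe2l2*, which encodes the oxidant-sensing factor NRF2, was lower in every FL liver, as 1.98% of all genes were (1197 to 1494 against 1583 to 1713), with -0.33. The CAR gene *Nr1i3* ranged from 811 to 1377 in FL and from 806 to 1426 in WT livers, the PXR gene *Nr1i2* from 1027 to 1480 and from 954 to 1459, and *Hnf4a* from 13355 to 15799 and from 9547 to 13827. Of 12 tested P450 genes of families 1 to 4 outside the 48 listed, *Cyp2a5*, *Cyp2a22* and *Cyp2b10* were lower in every FL liver (1.98% of all genes). Their log2 fold changes were -1.75, -1.60 and -1.96, with an adjusted p of 0.999 by limma. Without WT replicate 2 and FL replicate 3 the values were -2.13, -1.20 and -1.07, with adjusted p of 0.143, 0.307 and 0.438 by limma. The paper compared the genotypes with DESeq2 and reported *Cyp2a5* among its differentially expressed genes. It also reported lower staining for the CYP2A5 protein in FL livers at this time after CCl4. *Cyp2b10*, a target of CAR, had 289, 83, 256 and 151 in FL and 348, 3040 and 302 in WT livers, so that WT replicate 2 alone was far above the rest.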

How the data were processed

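Whole livers of 4 FL and 3 WT mice were analysed by RNA-seq, and samples were assigned to genotype from their labels. The authors aligned the reads with TopHat2 and Bowtie2, counted them per gene of Ensembl release 75 with HTSeq (the submitters' processing notes also name featureCounts) and normalised them with DESeq2. The table the authors deposited gives such counts as whole numbers, handled here as a score with no fixed unit, so that no count test was run. Upstream versions in the processing notes were bcl2fastq 2.15.0.4, TopHat2 2.0.13, Bowtie2 2.2.6.0 and R 3.4.2.

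The table held 14988 rows for 14851 identifiers, with symbols and GRCm38 coordinates from GENCODE vM21. The spacing of low values put 1 read at 0.812 to 1.38 normalised counts, or 11.9 to 19.5 M reads per liver. Depth bears on counting error alone. Genotypes were compared with limma 3.58.1 in R 4.3.3 (trend, log2 of value + 1, mean of at least 10, Benjamini-Hochberg 0.05) over all genes. Single genes were compared by exact two-sided permutation over 35 splits. Tables and figures used Python 3.11.15, pandas 2.3.3, NumPy 2.4.6 and Matplotlib 3.10.9. Stretches of 36 bases shared between genes were counted in GENCODE transcripts.

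Members and lists were chosen with earlier results of these data known. Values in every liver were given for genes with no overlap of genotypes, the 2 with the smallest p and the 1 with the largest fold change in each of families 1, 2C, 2D, 2J, 3A, 4A and 4F, the 5 highest per kilobase, and the lists for male and female liver. Those of *Cyp2c37*, *Cyp2c50*, *Cyp2c54* and *Cyp2c67* were added after they were seen. No correlation across livers was given, because the livers fell into separate clusters. Alternatives were pseudocounts of 0.5 and 5, other filters, quantile and trimmed-mean scaling, limma without a trend, robust or with array weights, a replicate block, and leaving out livers. Replicates are separate mice.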

Additional observations from a re-analysis of the deposited data

Results flagged for a closer look

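Of the 45 genes, 2 had 1 FL liver far from the other 3, which chance alone would give in about 1 of 20 genes (2.25 of 45). *Cyp4b1* was 541 in FL replicate 3 and 299 to 325 in the other FL livers, a gap to them of 0.893 of the range. *Cyp4v3* was 3998 in FL replicate 3 and 5460 to 5578 in the other FL livers, a gap of 0.925 of the range. In WT replicate 2 the same genes were at 166% and 77.9% of the mean of the other WT livers.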

How the results depend on the processing

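The count of P450 genes past an adjusted p of 0.05 was 0 under all 19 alternatives, with a lowest adjusted p of 0.134 by limma. The count at an unadjusted p under 0.05 was 7 (3.2% of all tested genes), 19 with array weights (12.1%), 21 without WT replicate 2 and FL replicate 3 together (9.74%), and from 2 to 10 with 1 liver left out (1.97% to 5.97%). It was 2 without FL replicate 2, FL replicate 4 or WT replicate 3 and 3 without FL replicate 1. Genes with no overlap of genotypes numbered 6 (4.76%), 23 without both livers that stood apart (27.4%), and from 6 to 18 with 1 liver left out, of which 12 were without FL replicate 3 (11.4%) and 18 without WT replicate 2 (19.8%). The replicate numbers are shared by different mice. Deviations of same-numbered livers from the mean of their genotype had correlations of 0.44, -0.48 and -0.66. Each genotype mean includes a liver that stood apart, so these correlations cannot decide whether the livers are paired. With a replicate block, 0 genes had an unadjusted p under 0.05 (110 of all tested genes).

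Of 448 fold changes of named genes under an alternative, 418 kept their sign and 30 did not, and 13 of the genes kept it in every one. With array weights and without both livers, in that order, the reversed log2 fold changes were -0.015 and -0.080 for *Cyp2c40*, 0.18 and 0.087 for *Cyp3a16* (0.048 with the replicate block), -0.80 and -0.98 for *Cyp4a12a*, -0.83 and -0.92 for *Cyp4a12b*, 0.058 and 0.17 for *Cyp4a31*, and -0.11 and -0.082 for *Cyp4f14*. With 1 liver left out, values ran from -0.69 to 0.31 for *Cyp1a2*, -0.69 to 0.056 for *Cyp2c38*, -0.28 to 2.04 for *Cyp2c40*, -0.10 to 2.67 for *Cyp2c69*, -0.090 to 1.01 for *Cyp2d9*, -0.67 to 0.28 for *Cyp3a16*, -1.07 to 0.89 for *Cyp4a12a*, -0.78 to 0.54 for *Cyp4a12b*, -0.48 to 0.14 for *Cyp4a14* and -0.033 to 0.21 for *Cyp4f14*. The cause was not tested. Depth limits *Cyp3a41a* and the low values of *Cyp2c40* and *Cyp2c69* in WT replicate 2, where a few reads make up the value.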
